A study of Mus musculus with 29 samples.

Results

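Tyrosine phosphatases that act on Janus kinases (JAKs) and on antigen receptor kinases were followed in pro-B cells of the mouse bone marrow. The genes were taken by symbol and are *Ptprc*, *Ptpn1*, *Ptpn2*, *Ptpn6*, *Ptpn11*, *Ptpn22*, *Ptpre*, *Ubash3a* and *Ubash3b*. All 9 were found once each among the 24732 entries of the *Pax5*+/+ and *Pax5*-/- libraries and among the 25588 entries of the Meox2-cre libraries. The study sorted C57BL/6 pro-B cells directly from the animal and measured their poly(A) RNA. It comprised 3 *Pax5*+/+ libraries, labelled wild-type, 2 *Pax5*-/- libraries, which lack the B cell commitment factor Pax5, and 3 *Pax5*+/+ Meox2-cre libraries of pooled cells from mice 3 weeks old. Meox2-cre is a Cre recombinase expressed from the *Meox2* locus throughout the body. The labels call these mice *Pax5*+/+, whereas the sample list of the study names a heterozygous *Pax5* genotype, and the label was followed. The age of the *Pax5*+/+ and *Pax5*-/- mice is not given in the sources used here. Per the methods of the study, *Pax5*+/+ pro-B cells and *Pax5*-/- progenitors were sorted through different gates, with Ly6D used for the latter, so genotype and gate cannot be told apart. Nothing in the labels says that the libraries of a group came from separate animals, so p-values measure the spread between these libraries, which may be technical.

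Tyrosine phosphorylation starts signalling from cytokine receptors through JAK and STAT proteins, and from the antigen receptors through kinases of the Src, Syk and Tec families. Tyrosine phosphatases remove these phosphates and thereby set the threshold and the duration of a signal. In pro-B cells the interleukin-7 receptor signals through JAK1 and JAK3 to STAT5, and the precursor of the B cell receptor signals through Src family kinases, Syk, Btk and the adaptor Blnk.

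The level of each gene was given as TPM (transcript abundance), which is scaled for gene length and sums to 1000000 in every library. TPM keeps no record of the number of reads, so the depth and the counting error are unknown. *Pax5* itself, the targeted gene, was at 342, 386 and 391 TPM in the *Pax5*+/+ libraries, against 43.0 and 39.1 TPM in the *Pax5*-/- libraries, and it separated the genotypes in the labelled direction. The pro-B cell markers summed to 13409 to 15983 TPM in *Pax5*+/+ and to 4493 to 4811 TPM in *Pax5*-/- cells, with 7 of 10 markers lower and 0 higher in limma at an adjusted p below 0.05. The T cell genes *Cd3d*, *Cd3e* and *Cd3g* stayed at or below 0.434 TPM in every library. *Cd4* and *Trat1* of the same list were higher in *Pax5*-/- cells (log2 fold changes of 2.38 and 1.68). Replicate 1 of *Pax5*+/+ stood apart in markers of other cells, since its 7 myeloid markers summed to 41.6 TPM against 168 and 140 TPM in replicates 2 and 3. Its 4 erythroid markers summed to 70.6 TPM against 149 and 175 TPM. In *Pax5*-/- cells these sums were 55.1 and 73.4 TPM for the myeloid and 57.8 and 7.28 TPM for the erythroid markers. The myeloid markers were mixed. *Mpo* was at 37.8 and 42.1 TPM in *Pax5*-/- against 11.1 to 34.5 TPM in *Pax5*+/+ cells and did not pass, while *Elane* and *Itgam* were lower (log2 fold changes of -3.10 and -1.22). The 4 plasmacytoid dendritic cell markers, led by *Irf8*, summed to 392.1 to 454 TPM in *Pax5*+/+ and to 214 and 303 TPM in *Pax5*-/- cells. Of these markers, *Irf8* and *Tcf4* were lower (log2 fold changes of -2.06 and -0.69), *Siglech* was higher (2.20) and *Bst2* did not pass (0.46).

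The 9 phosphatase genes fell into an abundant and a scarce set in *Pax5*+/+ pro-B cells. *Ptpn6*, which encodes the SH2 domain phosphatase SHP-1, was by far the highest at 237 ± 52.3 TPM (mean ± SD, n = 3). *Ptpn11* followed at 68.4 ± 7.71 TPM, *Ubash3a* at 66.3 ± 4.52 TPM, *Ptprc* at 65.3 ± 5.50 TPM and *Ptpn1* at 64.7 ± 4.11 TPM (n = 3 each). These 4 genes could not be ordered, because the ranges of neighbours overlapped. The scarce set held *Ptpn22* at 10.2 ± 3.98 TPM, *Ptpre* at 8.79 ± 2.46 TPM, *Ptpn2* at 7.84 ± 0.670 TPM and *Ubash3b* at 7.17 ± 1.04 TPM (n = 3 each). The ranges of neighbours overlapped within this set as well, whereas no library of the scarce set reached any library of the abundant set. In *Pax5*-/- cells, *Ptpre* moved from the scarce to the abundant end and *Ubash3a* moved the other way, which left *Ptpre* in the fifth place at 45.9 ± 3.57 TPM and *Ubash3a* in the sixth at 12.1 ± 0.0488 TPM (n = 2 each). In the *Pax5*-/- order, *Ptpn1* and *Ptpn11* were the neighbours whose ranges overlapped.

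**Figure D1:**
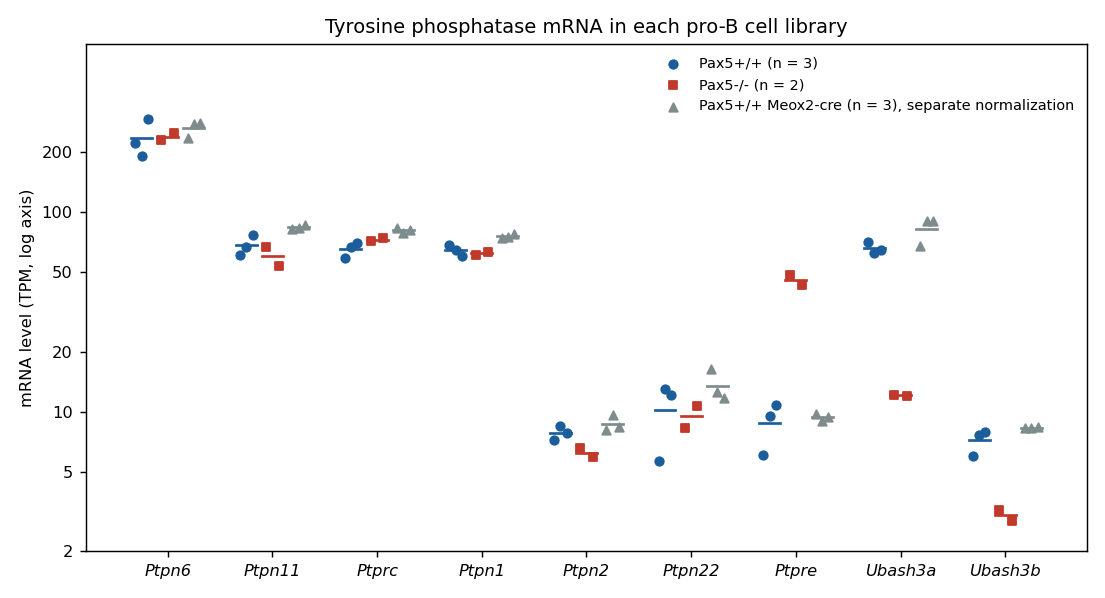
Levels of the 9 phosphatase genes in TPM (log axis) in each of the 8 libraries, with a point for a library and a line for the group mean. The *Pax5*-/- points of *Ptpre* sit above, and those of *Ubash3a* and *Ubash3b* below, every *Pax5*+/+ point, and the Meox2-cre tables were normalized separately from the others.

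The comparison of *Pax5*-/- with *Pax5*+/+ cells asked which of these genes depend on Pax5 status in sorted progenitors. It was made with limma on log2(TPM + 0.5) over 12066 entries, with Benjamini-Hochberg adjustment over all of them. Of the 9 genes, 1 rose (*Ptpre*), 2 fell (*Ubash3a* and *Ubash3b*) and 6 did not pass an adjusted p of 0.05. Over all entries tested, 15.6% were called higher and 21.5% lower, so the 33.3% of the phosphatase genes that passed lay close to the 37.1% of all entries that did. Under the study's thresholds of more than 3-fold, an adjusted p below 0.05 and a mean above 5 TPM, 2 of the 9 genes were called, *Ptpre* and *Ubash3a*, against 5.86% of all entries. A mean above 5 TPM held for all 9 genes but for 9841 of the 12066 entries, and the rest could not be called. The libraries of both genotypes did not overlap for 5 of the 9 genes, or 55.6%, against 63.4% of all entries. The median log2 fold change was -0.05 over the 9 genes and -0.12 over all entries. Rescaling by median ratios shifted that median over all entries by 0.11. In bulk samples, fewer cells with a transcript and less transcript per cell cannot be told apart.

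**Figure D2:**
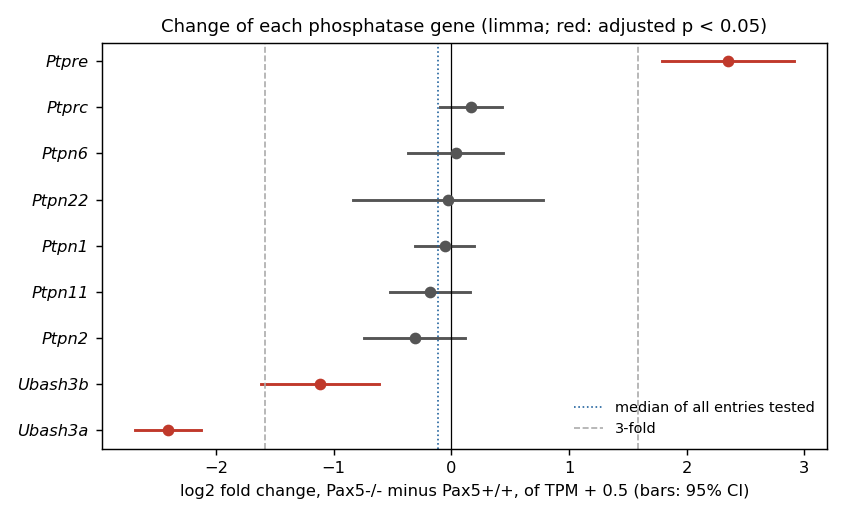
Log2 fold change (*Pax5*-/- minus *Pax5*+/+, of TPM + 0.5) of each phosphatase gene with its 95% confidence interval from limma, beside the median of all entries (dotted) and 3-fold (dashed). The interval of *Ptpre* from 1.79 to 2.92 and that of *Ubash3a* from -2.69 to -2.13 lie beyond 3-fold, that of *Ubash3b* lies below 0, and the other 6 intervals include 0.

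*Ubash3a* and *Ubash3b* encode STS-2 and STS-1, proteins with a ubiquitin-binding domain, an SH3 domain that binds Cbl, and a domain of the histidine phosphatase fold. Their phosphatase activity was not measured here and need not be equal. In GENCODE vM1 (mm9), *Ubash3a* lies on the plus strand of chr17:31344818-31379147 and *Ubash3b* on the minus strand of chr9:40819181-40969780, and no other annotated gene overlaps either. *Ubash3a* was at 71.3, 62.4 and 65.1 TPM in the *Pax5*+/+ libraries, against 12.1 and 12.0 TPM in the *Pax5*-/- libraries. All *Pax5*-/- values were far below the *Pax5*+/+ values and nearly equal to each other. The mean was 5.50-fold lower in *Pax5*-/- cells, and the log2 fold change was -2.41 ± 0.12 (SE) with an adjusted p of 1.61e-05 in limma. Within the libraries, *Ubash3a* dropped from the 72.6 to 76.0 percentile of entries above 1 TPM to the 33.4 to 33.9 percentile. The T cell list, which matters here because *Ubash3a* is well known from T cells, summed to 1.12 to 2.16 TPM in *Pax5*+/+ and to 7.01 to 7.74 TPM in *Pax5*-/- cells, with 2 of the 2 tested markers, *Cd4* and *Trat1*, higher. Most of the *Pax5*-/- sum was *Cd4*, at 3.97 and 5.88 TPM, while *Cd3e* was listed at 0 in both *Pax5*-/- libraries, and the part of these cells in the result was not tested.

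*Ubash3b* was at 5.97, 7.66 and 7.89 TPM in the *Pax5*+/+ libraries, against 3.20 and 2.83 TPM in the *Pax5*-/- libraries. Again no library of one genotype overlapped the other, but the levels were low in both. The mean was 2.38-fold lower in *Pax5*-/- cells, and the log2 fold change was -1.12 ± 0.21 (SE) with an adjusted p of 0.00607 in limma, short of the 3-fold threshold. This call rested on having both *Pax5*-/- libraries, since the adjusted p in limma was 0.0612 without *Pax5*-/- replicate 1 and 0.0905 without *Pax5*-/- replicate 2. *Ubash3a* kept its call in every alternative, with log2 fold changes between -2.45 and -2.30.

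Both *Ubash3* genes fell, with the larger fold change at *Ubash3a*. *Ubash3a* was 8.15 to 11.9 times as abundant as *Ubash3b* in the *Pax5*+/+ libraries and 3.78 and 4.25 times as abundant in the *Pax5*-/- libraries. The log2 ratio was 3.13 ± 0.30 (SD, n = 3) against 1.84 ± 0.10 (SD, n = 2), a difference of -1.29 without overlap of the libraries (p = 0.1, exact two-sided permutation test, the smallest p that 3 against 2 libraries can give; 0.2 after adjustment over 4 pairs of genes).

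The start regions of the 3 genes that changed are shown because these windows of 300 bases (250 before and 50 after a RefSeq transcription start, GRCm38.p6) are where sequence motifs of pro-B cell factors were counted. Capitals mark matches on either strand to TTCNNNGAA (STAT type), CANNTG (E-box), GGAAGT (ETS type) and a palindromic motif of the Ebf1 type, and each sequence is written 5′ to 3′ on the strand of the gene. The windows of the *Ubash3* genes are these:
Ubash3a, chr17:31207816-31208115, plus strand: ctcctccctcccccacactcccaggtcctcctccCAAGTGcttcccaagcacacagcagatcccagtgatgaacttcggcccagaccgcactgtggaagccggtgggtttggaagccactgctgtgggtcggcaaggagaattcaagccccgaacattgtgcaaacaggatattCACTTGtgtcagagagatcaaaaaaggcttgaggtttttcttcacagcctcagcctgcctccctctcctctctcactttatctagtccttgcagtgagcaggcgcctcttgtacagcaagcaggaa
Ubash3b, chr9:41158013-41158312, minus strand: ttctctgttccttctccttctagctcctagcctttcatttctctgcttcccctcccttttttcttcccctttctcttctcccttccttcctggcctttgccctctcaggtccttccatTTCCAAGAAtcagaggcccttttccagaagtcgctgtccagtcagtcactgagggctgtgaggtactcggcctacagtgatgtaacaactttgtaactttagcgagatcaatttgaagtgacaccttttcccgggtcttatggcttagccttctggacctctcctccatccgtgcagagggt
Ubash3b, chr9:41079457-41079756, minus strand: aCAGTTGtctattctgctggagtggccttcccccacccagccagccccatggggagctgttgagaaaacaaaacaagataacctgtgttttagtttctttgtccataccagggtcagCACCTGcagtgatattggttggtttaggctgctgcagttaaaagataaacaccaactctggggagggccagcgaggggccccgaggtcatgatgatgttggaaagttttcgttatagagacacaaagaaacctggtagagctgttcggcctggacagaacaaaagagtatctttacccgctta

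The *Ubash3a* window holds 2 E-box matches, CAAGTG and CACTTG, and no match of the STAT, Ebf1 or ETS type. The first *Ubash3b* window holds 1 match of the STAT type, and the second holds 2 E-box matches. The E-box letters occur in 72.3% of the 32851 promoter windows of the reference table, so their presence is common, whereas the STAT type letters occur in 8.30%. A match is a run of letters and was not tested for binding here.

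*Ptpre* encodes protein tyrosine phosphatase epsilon, which is made as a receptor form and as a cytosolic form from different start sites and acts on Src family kinases. It lies on the plus strand of chr7:142729507-142877977 (mm9). *Ptpre* was at 6.06, 9.48 and 10.8 TPM in the *Pax5*+/+ libraries, against 48.4 and 43.3 TPM in the *Pax5*-/- libraries. Both *Pax5*-/- values exceeded every *Pax5*+/+ value, and *Pax5*+/+ replicate 1, which also had the lowest myeloid and erythroid marker sums of its group, was the lowest. The mean was 5.22-fold higher in *Pax5*-/- cells, and the log2 fold change was 2.35 ± 0.24 (SE) with an adjusted p of 0.000366 in limma. In percentiles of entries above 1 TPM, *Ptpre* went from 22.4 to 30.2 in *Pax5*+/+ to 65.2 to 67.0 in *Pax5*-/- cells. Without *Pax5*+/+ replicate 1, or under any other alternative tried, *Ptpre* stayed higher, with log2 fold changes between 2.12 and 2.52 and a highest adjusted p of 0.0297 in limma. The NK cell markers, 4 genes led by *Nkg7*, also summed higher in *Pax5*-/- cells, at 22.3 and 29.2 TPM against 4.69 to 14.7 TPM. Of the 3 NK markers tested, *Nkg7* and *Gzma* were higher, whereas *Klrb1c* was lower (log2 fold change -1.69), and *Ncr1* was at or below 0.167 TPM, and the part of these cells in the result was not tested.

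In the mm9 annotation an exon of *Ptpre* overlaps an exon of 5830432E09Rik on the opposite strand, and the *Ptpre* entry carries an overlap mark in the *Pax5*+/+ and *Pax5*-/- tables. The counting is not stated to use strand, so reads of the overlap cannot be assigned with certainty. 5830432E09Rik was at 2.46, 4.07 and 2.38 TPM in *Pax5*+/+ and at 4.56 and 6.03 TPM in *Pax5*-/- cells. Its entry carries an overlap mark as well, so these values do not show how reads of the overlap were assigned. The part of the overlap in the *Ptpre* result was not tested. The tables give a value per gene, so the receptor and the cytosolic form are not separated. The 3 start windows of *Ptpre*, marked as above, are these:
Ptpre, chr7:135537574-135537873, plus strand: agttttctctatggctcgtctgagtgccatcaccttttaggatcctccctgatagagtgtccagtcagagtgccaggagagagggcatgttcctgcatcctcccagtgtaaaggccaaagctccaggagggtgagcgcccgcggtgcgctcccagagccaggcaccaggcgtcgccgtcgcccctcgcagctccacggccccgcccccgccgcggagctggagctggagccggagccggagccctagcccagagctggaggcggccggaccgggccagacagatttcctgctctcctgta
Ptpre, chr7:135593231-135593530, plus strand: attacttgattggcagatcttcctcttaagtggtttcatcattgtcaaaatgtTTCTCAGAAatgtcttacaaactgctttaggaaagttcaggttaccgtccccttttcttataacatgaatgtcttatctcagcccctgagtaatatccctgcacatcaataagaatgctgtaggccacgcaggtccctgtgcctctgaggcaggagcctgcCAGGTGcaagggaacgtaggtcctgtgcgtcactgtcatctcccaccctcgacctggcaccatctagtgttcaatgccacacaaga
Ptpre, chr7:135605578-135605877, plus strand: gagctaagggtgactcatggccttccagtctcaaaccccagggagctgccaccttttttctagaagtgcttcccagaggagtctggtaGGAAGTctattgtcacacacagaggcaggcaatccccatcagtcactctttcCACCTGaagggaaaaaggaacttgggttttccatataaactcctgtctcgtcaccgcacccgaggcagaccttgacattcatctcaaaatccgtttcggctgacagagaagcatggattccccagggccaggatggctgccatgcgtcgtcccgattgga

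The first *Ptpre* window, farthest upstream, holds no match to any of the 4 motifs. The second holds 1 match of the STAT type and 1 E-box, and the third holds 1 E-box and 1 match of the ETS type. Over the 13 windows of the 8 genes with an entry in the table, 3 windows held the STAT type, 8 an E-box, 6 the ETS type and 0 the Ebf1 type, against 8.30%, 72.3%, 23.8% and 0.904% of all windows. Both *Ptprc* windows overlap each other, and no match of a motif overlapped a match of another.

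*Ptprc* encodes CD45, the most abundant transmembrane phosphatase of white blood cells, which removes the inhibitory phosphate of Src family kinases and can also act on JAKs. It lies on the minus strand of chr1:139959438-140071882 (mm9). *Ptprc* was at 59.3, 66.7 and 70.0 TPM in the *Pax5*+/+ libraries, against 72.1 and 74.0 TPM in the *Pax5*-/- libraries. The groups did not overlap, but the gap between them was smaller than the range within *Pax5*+/+. The log2 fold change was 0.16 with a 95% confidence interval from -0.10 to 0.43 and an adjusted p of 0.288 in limma. B220, on which both genotypes were sorted, is an isoform of CD45, and the gene-level values do not show which exons were used.

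*Ptpre* and *Ptprc* are the receptor-type genes of the set, and their ratio did not overlap between the genotypes. *Ptpre* was at 0.102 to 0.155 of the *Ptprc* level in the *Pax5*+/+ libraries and at 0.671 and 0.585 in the *Pax5*-/- libraries. The log2 ratio was -2.86 ± 0.29 (SD, n = 3) against -0.67 ± 0.14 (SD, n = 2), a difference of 2.19 (p = 0.1 in the exact two-sided permutation test, 0.2 after adjustment over 4 pairs).

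**Figure D3:**
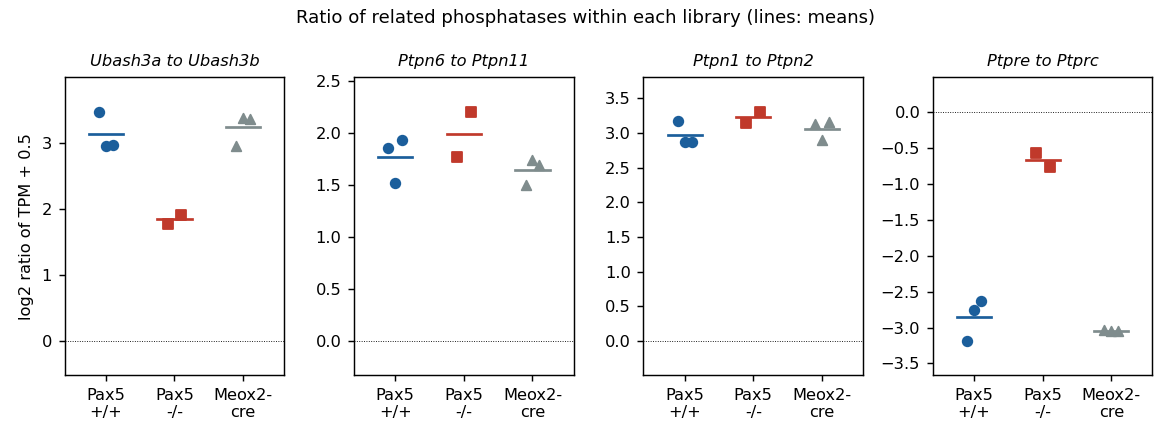
Log2 ratio of TPM + 0.5 between 4 pairs of related phosphatases within each library, with points for libraries, lines for group means and a dotted line at equal levels. The *Pax5*-/- points of *Ubash3a* to *Ubash3b* (1.77 and 1.91) lie below, and those of *Ptpre* to *Ptprc* (-0.57 and -0.77) above, all *Pax5*+/+ and Meox2-cre points, while those of *Ptpn6* to *Ptpn11* and *Ptpn1* to *Ptpn2* lie within or next to the *Pax5*+/+ points.

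*Ptpn6* and *Ptpn11* encode SHP-1 and SHP-2, which bind phosphorylated receptor tails through SH2 domains. SHP-1 dampens antigen receptor and cytokine signals when inhibitory receptors recruit it, whereas SHP-2 mainly promotes signalling to Ras and ERK. *Ptpn6* (mm9 chr6:124670725-124688732, minus strand) was at 223, 193 and 295 TPM in *Pax5*+/+ and at 230 and 250 TPM in *Pax5*-/- cells. Both *Pax5*-/- values lay inside the *Pax5*+/+ range. Its log2 fold change was 0.04, with a 95% confidence interval from -0.36 to 0.44 and an adjusted p of 0.879 in limma, and the sign turned without *Pax5*+/+ replicate 2 or *Pax5*-/- replicate 2. An annotated gene on the opposite strand, RP24-297C1.11, shares exon sequence with *Ptpn6*, and it was not analysed here. Unlike that of *Ptpre*, the *Ptpn6* entry carries no overlap mark.

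*Ptpn11* (mm9 chr5:121580542-121641406, minus strand) was at 61.4, 67.1 and 76.6 TPM in *Pax5*+/+ and at 67.0 and 53.6 TPM in *Pax5*-/- cells, and the groups overlapped. The log2 fold change was -0.18, with a 95% confidence interval from -0.52 to 0.16 and an adjusted p of 0.355 in limma. The log2 ratio of *Ptpn6* to *Ptpn11* was 1.77 ± 0.22 (SD, n = 3) in *Pax5*+/+ and 1.99 ± 0.31 (SD, n = 2) in *Pax5*-/- cells, a difference of 0.22 (p = 0.5, exact two-sided permutation test).

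*Ptpn1* encodes PTP1B, which sits on the endoplasmic reticulum and acts on JAK2 and TYK2, and *Ptpn2* encodes the related TC-PTP, which acts on JAK1, JAK3 and STAT proteins. *Ptpn1* (mm9 chr2:167757557-167804885, plus strand) was at 68.6, 65.1 and 60.4 TPM in *Pax5*+/+ and at 61.4 and 63.0 TPM in *Pax5*-/- cells, inside the *Pax5*+/+ range. The log2 fold change was -0.05, with a 95% confidence interval from -0.31 to 0.20 and an adjusted p of 0.713 in limma. Its sign turned to 0.06 when libraries were rescaled by median ratios and to 0.04 after quantile normalization.

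*Ptpn2* (mm9 chr18:67825165-67884249, minus strand) was at 7.17, 8.51 and 7.85 TPM in *Pax5*+/+ and at 6.54 and 5.91 TPM in *Pax5*-/- cells. The *Pax5*-/- values were the lowest, without overlap. The log2 fold change was -0.31, with a 95% confidence interval from -0.74 to 0.12, and the adjusted p of 0.222 in limma did not pass. *Ptpn1* was 7.65 to 9.56 times as abundant as *Ptpn2* in *Pax5*+/+ and 9.39 and 10.7 times as abundant in *Pax5*-/- libraries. The difference of 0.25 in the log2 ratio had p = 0.3 in the exact two-sided permutation test.

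*Ptpn22* encodes a phosphatase that works with the kinase Csk to switch off Src family kinases. *Ptpn22* (mm9 chr3:103663718-103716170, plus strand) was at 5.66, 12.9 and 12.1 TPM in *Pax5*+/+ and at 8.32 and 10.7 TPM in *Pax5*-/- cells. It was the most variable of the 9 genes in *Pax5*+/+, with a coefficient of variation of 38.9%, and replicate 1 lay well below replicates 2 and 3. That replicate also had the lowest myeloid and erythroid marker sums given above, and their part in the result was not tested. The log2 fold change was -0.03, with a wide 95% confidence interval from -0.84 to 0.78 and an adjusted p of 0.955 in limma. Its sign was positive in 5 alternatives, so no direction can be given.

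The 9 genes summed to 508, 493 and 605 TPM in *Pax5*+/+ and to 509 and 515 TPM in *Pax5*-/- cells, and the *Pax5*-/- sums lay inside the *Pax5*+/+ range. The difference of the means, -23.7 TPM, turned to 11.2 TPM without *Pax5*+/+ replicate 3, in which *Ptpn6* was highest. *Ptpn6* alone made up 39.1% to 48.7% of the sum in the *Pax5*+/+ and 45.1% and 48.5% in the *Pax5*-/- libraries.

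The Meox2-cre libraries give the same genes in a further set of *Pax5*+/+ pro-B cells. Their tables were made on mm10 with another aligner and normalized separately, so their levels stand beside the others without a test. *Ptpn6* was again highest at 235, 279 and 280 TPM, followed by *Ptpn11* at 82.6, 83.3 and 86.0 TPM, *Ubash3a* at 67.6, 90.3 and 90.7 TPM, *Ptprc* at 83.5, 78.7 and 81.8 TPM and *Ptpn1* at 74.5, 75.0 and 78.0 TPM. The scarce genes were *Ptpn22* at 16.4, 12.5 and 11.6 TPM, *Ptpre* at 9.75, 9.03 and 9.42 TPM, *Ptpn2* at 8.07, 9.65 and 8.34 TPM and *Ubash3b* at 8.27, 8.30 and 8.35 TPM. The order of the 9 means was the same as in the *Pax5*+/+ libraries, with overlapping ranges from *Ptpn11* to *Ptprc* and from *Ptpre* to *Ubash3b*. The group means of *Ptpn6* and *Ptpre* lay inside the *Pax5*+/+ range, and for *Ptprc*, *Ptpn1*, *Ptpn11* and *Ubash3b* every Meox2-cre library was above every *Pax5*+/+ library. The share of all entries that did so was not computed, so this cannot be read as a trait of these genes. *Ubash3a* was 8.17 to 10.9 times as abundant as *Ubash3b*, and *Ptpre* was at 0.115 to 0.117 of the *Ptprc* level, both closer to the *Pax5*+/+ than to the *Pax5*-/- ratios. The 7 myeloid markers summed to 269 to 649 TPM in these libraries, above all *Pax5*+/+ libraries.

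The 3 entries whose profile over the 5 *Pax5*+/+ and *Pax5*-/- libraries was most like that of *Ptpre*, among 9841 entries with a group mean above 5 TPM, were BC005764, *Rapgef3* and *Ext1*. Their root mean square differences from *Ptpre* on the centred log2 scale were 0.0995, 0.1002 and 0.132. *Ext1* was at 11.4, 16.0 and 18.8 TPM in *Pax5*+/+ and at 74.4 and 60.7 TPM in *Pax5*-/- cells, with *Pax5*+/+ replicate 1 the lowest as for *Ptpre*. For *Ubash3a*, they were *Ttll1*, *Bcl7a* and *Aim1*, at 0.0958, 0.107 and 0.110. *Bcl7a* was at 497, 499 and 520 TPM in *Pax5*+/+ and at 109 and 102 TPM in *Pax5*-/- cells. Both profiles are set mainly by the difference between the genotypes.

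The other classical tyrosine phosphatases comprised 31 genes, of which 15 were above 1 TPM in a genotype and were tested. Of these, 2 rose, 4 fell and 9 did not pass, which is 40.0% against 37.1% of all entries, with a median log2 fold change of 0.01. *Ptprn*, a receptor-type gene known from secretory granules of endocrine cells, was at 0.215, 0.141 and 0.104 TPM in *Pax5*+/+ and at 6.41 and 7.47 TPM in *Pax5*-/- cells. Its log2 fold change was 3.51 ± 0.26 (SE). *Ptpn12*, which encodes the cytosolic phosphatase PTP-PEST, fell from 18.6, 24.3 and 25.5 TPM to 6.18 and 5.10 TPM, with a log2 fold change of -1.92 ± 0.19 (SE). The counts were 1 higher and 1 lower both without *Pax5*-/- replicate 1 and without *Pax5*-/- replicate 2.

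The JAK-STAT components, on which PTP1B, TC-PTP and SHP-1 act, comprised 10 genes, all tested, and none passed with more than a 2-fold change. At an adjusted p below 0.05, 2 rose and 3 fell, which is 50.0% against 37.1% of all entries, and the median log2 fold change was -0.23. They are named here after their values were seen. *Il2rg*, the common cytokine receptor chain, had a log2 fold change of 0.68, and *Jak3*, the kinase that binds it, of 0.52. *Jak2* had a log2 fold change of -0.84, *Stat3* of -0.47 and *Stat5b* of -0.33, the last with an adjusted p of 0.0485 in limma. *Il7r* (0.48, adjusted p = 0.111 in limma) and *Jak1* (-0.34, adjusted p = 0.0523 in limma) did not pass. The count lower was 2 with an eBayes with no trend, a robust eBayes, median ratios or quantile normalization. The counts moved with the library left out, to 1 higher and 0 lower without *Pax5*-/- replicate 1 and likewise without *Pax5*-/- replicate 2, 5 lower without *Pax5*+/+ replicate 1 and 1 lower without *Pax5*+/+ replicate 2, and to 4 higher when rescaled by median ratios.

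Of the 12 antigen receptor kinases and adaptors, 10 passed, with 2 higher and 8 lower, which is 83.3% against 37.1% of all entries, and the median log2 fold change was -0.65. *Cd79a*, a signalling chain of the B cell receptor, fell from 4817, 5449 and 3670 TPM to 542 and 608 TPM, with a log2 fold change of -2.996 ± 0.17 (SE). *Blnk*, the adaptor that links Syk to Btk, fell from 808, 1154 and 955 TPM to 163 and 104 TPM (log2 fold change -2.88 ± 0.21, SE). In the other direction, the Src family kinase genes *Lck* and *Fgr* rose. *Lck* went from 70.9, 54.8 and 72.2 TPM to 196 and 198 TPM, and *Fgr* from 0.303, 1.23 and 1.32 TPM to 10.8 and 11.5 TPM. Not all Src family genes of the list rose, and further ones are named here after their values were seen. *Lyn* fell from 91.0, 75.1 and 84.8 TPM to 34.4 and 34.5 TPM (log2 fold change -1.26). *Blk* (-0.06) and *Fyn* (0.20) did not pass. The kinase gene *Syk* is also in the list, is named after its value was seen, and fell from 387, 407 and 431 TPM to 283 and 263 TPM. Without *Pax5*-/- replicate 1 the count lower was 5, and without *Pax5*-/- replicate 2 it was 3.

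The partners comprised 19 genes for proteins that bind, recruit or splice the phosphatases, of which 18 were tested. Of these, 1 rose, 7 fell and 10 did not pass, which is 44.4% against 37.1% of all entries, and the median log2 fold change was -0.41. The 3 genes with the largest falls encode inhibitory receptors of B cells. *Cd72* fell from 165, 165 and 214 TPM to 1.58 and 1.80 TPM, with a log2 fold change of -6.37 ± 0.16 (SE). *Siglecg* fell from 95.4, 98.9 and 142 TPM to 2.38 and 2.57 TPM (log2 fold change -5.22 ± 0.19, SE). *Fcgr2b*, an inhibitory Fc receptor, fell from 25.7, 18.9 and 25.9 TPM to 3.93 and 4.61 TPM (log2 fold change -2.32 ± 0.20, SE). Other receptor genes of the list, named here after their values were seen, were mixed. *Cd22* (-2.06) and *Cd5* (-1.38) fell, whereas *Pecam1* (0.06), *Lair1* (0.09) and *Ceacam1* (-0.34) did not pass, and *Pirb* was not tested. The levels of *Ptpn6* were inside the *Pax5*+/+ range in the same *Pax5*-/- libraries.

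*Hnrnpll*, a splicing factor known to regulate the alternative exons of *Ptprc*, was the partner gene that rose, from 1.99, 3.11 and 2.67 TPM to 34.6 and 27.1 TPM. Its log2 fold change was 3.35 ± 0.23 (SE), while the gene-level value of *Ptprc* did not pass the test. *Ptprcap*, whose product associates with CD45, was at 2607, 2500 and 1813 TPM in *Pax5*+/+ and at 1604 and 1757 TPM in *Pax5*-/- cells (adjusted p = 0.0772 in limma). *Csk*, the kinase partner of Ptpn22, fell from 760, 688 and 674 TPM to 575 and 546 TPM, with a log2 fold change of -0.33 ± 0.10 (SE) with an adjusted p of 0.0330 in limma. *Cbl* and *Cblb*, ubiquitin ligase genes whose products bind the *Ubash3* proteins, had log2 fold changes of 0.30 and -0.39 and did not pass (adjusted p = 0.108 and 0.0792 in limma). The count of partner genes lower was 3 without *Pax5*-/- replicate 1 and likewise without *Pax5*-/- replicate 2, and 2 genes were higher after rescaling by median ratios or quantile normalization.

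**Figure D4:**
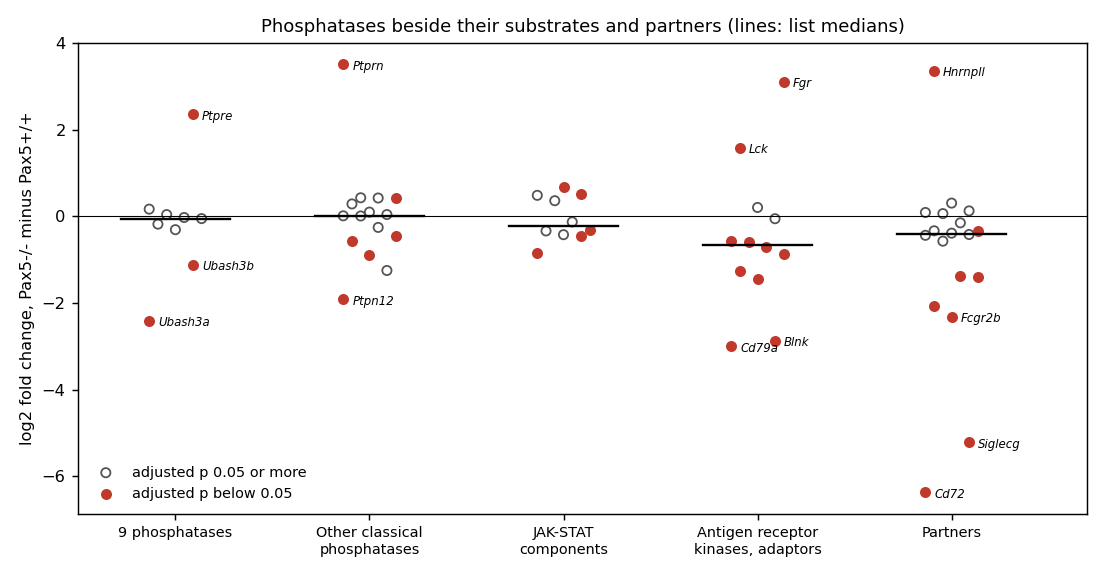
Log2 fold change (*Pax5*-/- minus *Pax5*+/+, of TPM + 0.5) of every tested gene of the phosphatase set and of 4 lists, with a point for a gene, filled where the adjusted p in limma is below 0.05, and a line for the list median. Names mark the 3 phosphatases that changed and the list genes described in the text with changes beyond 2-fold, except *Lyn*, *Cd22* and *Cd5*. The medians run from 0.01 for the other phosphatases to -0.65 for the antigen receptor list.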

How the data were processed

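RNA of sorted pro-B cells was measured by poly(A) RNA-seq. The authors deposited TPM values, a table per library, in which the genes of immunoglobulins and T cell receptors were kept. Reads of the *Pax5*+/+ and *Pax5*-/- libraries were aligned to mm9 with TopHat (version 1.4.1a in the submitters' processing notes), and those of the Meox2-cre libraries to mm10 with STAR (version 2.4.2a). Reads per gene were counted with featureCounts (version 1.5.0) on refGene annotations. No counts were used here, and TPM keeps no depth, so no counting interval is given. The methods name the default settings of featureCounts for the mm9 libraries and do not mention strand, so reads of overlapping genes are uncertain. Entries were matched by the symbol before any mark.

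Genotypes were compared over 3 *Pax5*+/+ and 2 *Pax5*-/- libraries in limma 3.58.1 (lmFit, eBayes with trend, two-sided) on log2(TPM + 0.5), over entries with a group mean above 1 TPM, with Benjamini-Hochberg adjustment over all entries. Fold changes on this scale understate the change of low genes. The script was tested on simulated data. Ratios were tested by exact permutation over 10 splits. The genes, lists, motifs and the rule for named genes were chosen with earlier results of these data known. Named were the 9 genes, per list up to 3 genes in each direction past adjusted p 0.05 and 2-fold, 5 fixed partners, *Pax5*, and the 3 most similar profiles of each gene called by the study's rule. The alternatives were pseudocounts of 0.1 and 1, a filter at 5 TPM or none, rescaling by median ratios, quantile normalization, a robust eBayes, an eBayes with no trend, removal of the immunoglobulin and T cell receptor entries, a 2-fold threshold, and leaving out each library. A gene that the rule names is not reported here. The ChIP-seq samples were not analysed here.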

Additional observations from a re-analysis of the deposited data

How the results depend on the processing

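The changes of *Ptpre* and *Ubash3a* kept their direction and their call in limma in all 14 alternatives. *Ubash3b* kept its direction in all 14 and lost its call without *Pax5*-/- replicate 1 (log2 fold change -1.19) or replicate 2 (-1.04), where the lone library was assumed to vary like the others, so between 1 and 2 genes of the set were lower when a library was left out. The other 6 genes were called in none of the alternatives. Signs turned for *Ptpn1* (0.0601 by median ratios, 0.0385 by quantiles), *Ptpn6* (-0.10 without *Pax5*+/+ replicate 2 and -0.02 without *Pax5*-/- replicate 2, with a highest value of 0.21 without *Pax5*+/+ replicate 3) and *Ptpn22* (0.0825 by median ratios, 0.0549 by quantiles, 0.17 without *Pax5*+/+ replicate 2, 0.13 without replicate 3 and 0.14 without *Pax5*-/- replicate 1, with a lowest value of -0.39 without *Pax5*+/+ replicate 1). The difference in the summed level turned to 20.03 TPM by median ratios and ran from -45.1 to 11.2 TPM over the libraries left out, and that in the log2 ratio of *Ptpn6* to *Ptpn11* ran from -0.00010 to 0.44. The cause of these turns was not tested.

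Over all entries, leaving out a library gave 704 to 1977 higher and 825 to 3233 lower calls, no filter gave 1164 and 1257, and a 2-fold threshold in the study's rule gave 1383. Without a filter, the counts higher and lower were 1 and 2 for the other phosphatases, and 1 and 0 for the JAK-STAT list, with 5 lower for the antigen receptor list and 3 lower for the partners. Over the libraries left out, the other phosphatases gave 1 to 3 higher and 1 to 4 lower, the JAK-STAT list 1 to 3 higher and 0 to 5 lower, the antigen receptor list 3 to 8 lower and the partners 3 to 8 lower. A filter at 5 TPM gave 5 lower in the JAK-STAT list. Median ratios gave 2 lower for the other phosphatases, 4 higher for the JAK-STAT list and 2 higher for the partners, and quantiles gave 2 higher for the partners. No paired analysis was possible because replicate numbers here only name libraries and do not come from the labels. With 3 against 2 libraries and no read depth, differences within the stated intervals were not detectable.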
